A study of Mus musculus with 2 samples.

Results

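The immunoglobulin constant genes and Jchain were followed through single-cell RNA-Seq of mouse liver leukocytes, to ask which cells carried which antibody class and whether this differed after oral antibiotics. The members were 10 named genes, Ighm, Ighd, Igha, Ighg1, Ighg2b, Ighg2c, Ighg3, Igkc, Iglc1 and Jchain, and all 10 were found among the 28692 genes of the deposited tables. Each group was 1 library of FACS-sorted CD45+ cells from the liver, 1 from mice given vehicle and 1 from mice given ampicillin and metronidazole at 1 mg/mL, with vancomycin and neomycin at 0.5 mg/mL, in their drinking water. The mice were 6-week-old females, and treatment lasted at least 1 week per the study's methods. The study used C57BL/6 mice beside other strains, and its methods tie no strain and no number of pooled mice to these libraries, and no allele or other agent was named for either group. With 1 library a group no test between treatments was possible, and the effect of treatment cannot be told apart from differences between mice or library preparations. Intervals below are exact 95% intervals and cover counting error only.

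An antibody is built from heavy chains, whose constant gene sets its class, and light chains, which are kappa (Igkc) or lambda (Iglc1, Iglc2, Iglc3). A naive B cell makes IgM and IgD (Ighm, Ighd) from the same transcript by splicing, and class switching later replaces Ighm with an Ighg, Ighe or Igha gene in the DNA. Plasma cells make the secreted form in very large amounts, and the J chain (Jchain) joins IgM pentamers and IgA dimers so that they can be carried across epithelia into bile and gut. The liver receives portal blood from the gut and holds both circulating B cells and antibody-secreting cells.

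The libraries were made by counting the 3′ ends of transcripts, so a gene can be told from a near copy only by the letters at its end. These are shown for the lambda genes because their counts decide which light chain a cell is given. The sequences below are the last 120 coding bases, stop codon included, from the GRCm38 genome and GENCODE transcripts on the minus strand, with the 40 positions that differ among the 3 genes in capitals (Iglc1, chr16:19061752-19061871; Iglc2, chr16:19198536-19198655; Iglc3, chr16:19065365-19065484).
Iglc1: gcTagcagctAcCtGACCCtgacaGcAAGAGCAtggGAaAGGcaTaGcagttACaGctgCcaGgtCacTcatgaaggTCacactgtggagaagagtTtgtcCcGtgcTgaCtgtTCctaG
Iglc2: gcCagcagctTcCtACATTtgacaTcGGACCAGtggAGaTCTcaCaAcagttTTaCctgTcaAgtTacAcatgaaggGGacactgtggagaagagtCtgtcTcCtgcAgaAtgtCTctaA
Iglc3: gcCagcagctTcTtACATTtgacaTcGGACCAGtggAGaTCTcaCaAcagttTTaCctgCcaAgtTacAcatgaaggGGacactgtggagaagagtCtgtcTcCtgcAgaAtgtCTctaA
Iglc1 was 67.5% identical to Iglc2 and to Iglc3 over this stretch, whereas Iglc2 and Iglc3 differed at 2 positions (98.3% identity). Among the last 300 transcript bases, Iglc1 shared 0 of 251 windows of 50 bases with any other constant gene, and Iglc2 and Iglc3 shared 13 of 251 (5.18%). Iglc1 counts therefore stood apart from the other lambda genes, while a read that matches both Iglc2 and Iglc3 cannot tell them apart.

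The heavy chain genes lie together on chromosome 12, minus strand, from Ighm (chr12:113418558-113422730) and Ighd (chr12:113406604-113416324) through Ighg3 (chr12:113356224-113361232), Ighg1 (chr12:113325240-113330523), Ighg2b (chr12:113302965-113307933) and Ighg2c (chr12:113285325-113288932) to Igha (chr12:113254830-113260236). Igkc is on the plus strand of chromosome 6 (chr6:70726435-70726966), and Iglc1 (chr16:19061618-19062071) and Jchain (chr5:88519809-88527891) are on the minus strand. Ighg2b and Ighg2c are shown because counts of Ighg2c were at or near 0 in every cell set (Ighg2b, chr12:113306389-113306508; Ighg2c, chr12:113287389-113287508; the 37 differing positions are in capitals).
Ighg2b: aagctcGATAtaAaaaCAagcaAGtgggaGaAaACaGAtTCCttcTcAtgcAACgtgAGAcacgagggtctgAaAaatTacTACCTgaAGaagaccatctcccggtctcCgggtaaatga
Ighg2c: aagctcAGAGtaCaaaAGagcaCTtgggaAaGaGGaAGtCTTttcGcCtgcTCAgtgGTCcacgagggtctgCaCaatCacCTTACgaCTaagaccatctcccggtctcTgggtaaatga
These ends were 69.2% identical. The Ighg2c transcript that ends with the sequence shown shared 0 of its last 251 windows with another constant gene, and the other annotated Ighg2c transcript shared 14 of 251 (5.58%) with Ighg2b. The ends of the secreted Ighm and Igha transcripts are shown because this tailpiece is where the J chain is attached, with the codon before the last in capitals (Ighm, chr12:113420867-113420926; Igha, chr12:113258768-113258827).
Ighm: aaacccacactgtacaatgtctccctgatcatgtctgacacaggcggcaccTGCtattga
Igha: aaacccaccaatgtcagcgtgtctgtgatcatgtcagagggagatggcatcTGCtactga
Both ends carry the codon TGC at this place, next to the final codon and the stop codon.

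The vehicle library held 41474311 UMIs and the antibiotic library 29811401, with 9002 and 7050 called cells of at least 1500 UMIs and under 10% mitochondrial UMIs. Ptprc, which encodes CD45, had a UMI in 74.7% and 76.1% of called cells. Cells were sorted into disjoint sets by a few genes: Jchain-high cells (Jchain of at least 10 UMIs), B cells (Cd79a of at least 2, no Cd3e), T cells (Trac of at least 2), a plasmacytoid dendritic cell gate (Siglech of at least 2), an NK and innate lymphoid cell gate (Ncr1) and a myeloid gate. B cells numbered 3012 (33.5% of called cells) in the vehicle and 1335 (18.9%) in the antibiotic library, with a median of 2526 and 2143 UMIs per cell, and T cells 4094 and 4463. Barcodes of 1 to 49 UMIs, 417898 and 373615 in number, gave the free RNA of each library. The libraries shared 93 called barcodes, against 86.1 expected from their sizes. Of barcodes called in the other library, 5890 lay in vehicle free RNA, with 145836 of its 3325153 UMIs. In antibiotic free RNA 8010 did, with 185540 of 3202480 UMIs. They held 6 of 494 and 5 of 836 free Jchain UMIs. All 9 antibiotic Jchain-high barcodes were seen in the vehicle library, at 79 to 251 UMIs. The 6 vehicle ones were seen in the antibiotic library, at 39 to 239 UMIs. The source of these UMIs was not tested. Scrublet marked 4.25% and 2% of called cells as doublets, none of them Jchain high. Levels are given as CPM, in which all UMIs of a cell set sum to 1000000, and since each molecule is counted once at its 3′ end they were not divided by gene length.

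In B cells, light chain, IgM and IgD transcripts made up nearly all of the antibody RNA. Igkc stood at 15071 CPM in the vehicle and 14701 CPM in the antibiotic library, Ighm at 3996 and 4104, Iglc1 at 1639 and 1317, and Ighd at 809 and 1011. The median B cell held 39 and 33 Igkc UMIs, 9 and 8 Ighm UMIs and 2 Ighd UMIs in either library. Every other member lay far below. Igha was at 26.7 CPM (interval 23.3 to 30.3) in the vehicle library, Ighg2b at 14.5 (12.1 to 17.3), Ighg1 at 9.46 (7.53 to 11.8), Jchain at 8.19 (6.40 to 10.3) and Ighg3 at 2.42 (1.5 to 3.71). In that order, Ighg1 and Jchain did not differ beyond their counting intervals. The order in the antibiotic library was Ighg2b at 45.5 (38.4 to 53.4), Jchain at 14.3 (10.5 to 19.1), Igha at 10.1 (6.93 to 14.1), Ighg3 at 7.32 (4.69 to 10.9) and Ighg1 at 0.305 (0.00772 to 1.70). The intervals of Jchain and Igha overlapped there, as did those of Igha and Ighg3. Ighg2c had 1 UMI in the B cells of the vehicle library and 0 in those of the antibiotic library. Ighe, the IgE heavy chain, had 0 UMIs in every cell set, which allows up to 0.346 and 0.915 CPM in B cells.

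**Figure D1:**
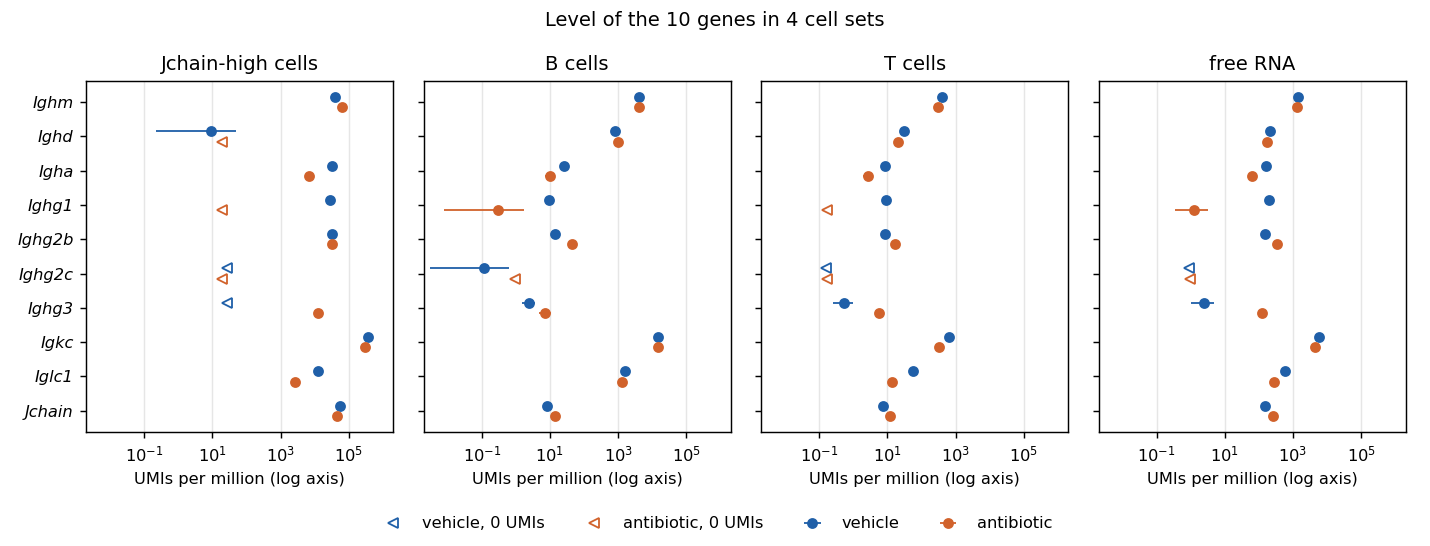
Level of each of the 10 genes in Jchain-high cells, B cells, T cells and free RNA, in CPM on a log axis, vehicle library in blue and antibiotic library in orange, with exact 95% Poisson intervals. Open triangles mark 0 UMIs and sit at the level of 3 UMIs. Ighd was highest in B cells (809 and 1011), whereas Jchain stood at 53518 and 44863 in Jchain-high cells and under 15 in B and T cells.

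Across the treatments, the members that B cells express strongly moved little. Ighm was 1.03-fold (1.01 to 1.05) and Igkc 0.975-fold (0.965 to 0.986) in the antibiotic over the vehicle library, Ighd was 1.25-fold higher (1.20 to 1.30) and Iglc1 0.804-fold (0.777 to 0.832). Of the 7 members with at least 100 UMIs over both libraries, 3 passed 1.5-fold in either direction, and 6.88% of all 7134 genes tested in B cells did. Igha was lower, at 0.378-fold (0.254 to 0.545) from 231 and 33 UMIs. Ighg2b was 3.12-fold higher (2.45 to 3.99) from 126 and 149 UMIs, and Jchain 1.75-fold higher (1.18 to 2.57) from 71 and 47 UMIs. Ighg1 fell from 82 UMIs to 1, a ratio of 0.0322 (0.000806 to 0.185), and Ighg3, with 21 and 24 UMIs, was 3.02-fold higher (1.61 to 5.71). The Ighg2b difference rested on few cells. The highest B cells of the antibiotic library held 46 and 36 of its 149 Ighg2b UMIs, and without the class-switched B cells described below the ratio was 1.65-fold. Likewise, 12 of the 21 vehicle Ighg3 UMIs lay in 1 cell. With the level in T cells subtracted as background, the log2 ratio of Ighg3 turned from 1.59 to -0.28. The small Ighm ratio turned too, from 0.04 to -0.026 on the log2 scale, in cells of at least 2500 UMIs.

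The shares of B cells with a UMI of these genes were set against those of T cells, which do not make antibody and were deeper (medians of 4198.5 and 3637 UMIs). Ighg1 had a UMI in 2.56% of vehicle B cells and in 4.23% of vehicle T cells. Jchain had a UMI in 2.19% of B cells and 3.37% of T cells in the vehicle library, and in 3.45% and 4.50% in the antibiotic library. Ighg2b had a UMI in 2.99% and 4.05% in the vehicle and in 4.27% and 6.25% in the antibiotic library. With every cell thinned to 1500 UMIs, Jchain was seen in 1.26% (0.894 to 1.73) of B cells and 1.39% (1.06 to 1.80) of T cells in the vehicle library, and in 2.25% (1.52 to 3.19) and 1.77% (1.40 to 2.20) in the antibiotic library. The thinned shares of Ighg2b were 1.36% and 1.37%, and 2.77% (1.96 to 3.80) and 2.26% (1.85 to 2.74), and those of vehicle Ighg1 1.46% and 1.61%. For these 3 genes the intervals of B and T cells overlapped after thinning, so that the share of B cells with a UMI was not told apart from the background share in T cells. With class-switched cells among the B cells, the level of Ighg2b did stand apart. Relative to free RNA it was at 9.99% (8.15 to 12.2) in B cells and 5.88% (4.90 to 7.03) in T cells of the vehicle library. In the antibiotic library it was at 13.7% (11.5 to 16.3) and 4.90% (4.29 to 5.58). Without the class-switched cells, B cells held Ighg2b at 11.35 and 18.75 CPM, beside 8.56 and 16.25 in T cells. Much of the separation thus rested on a few cells, a spread that the counting intervals do not cover. Ighg3 was at 0.266% and 0.244% in the vehicle library and at 1.80% and 2.26% in the antibiotic library before thinning. The share of Igha stood above that of T cells. Thinned, it had a UMI in 2.86% (2.29 to 3.51) of B cells and 1.20% (0.887 to 1.58) of T cells in the vehicle library, and in 1.57% (0.976 to 2.40) and 0.448% (0.274 to 0.691) in the antibiotic library, while the unthinned shares were 5.54% and 3.93%, and 2.17% and 1.08%.

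Markers of other cell types also moved within the B-cell gate, whose depth was lower in the antibiotic library. The summed level of 7 hepatocyte genes was 62.7 CPM in vehicle and 11.6 in antibiotic B cells, that of 5 NK genes 297 and 84.8, that of 5 myeloid genes 897 and 690, and that of 10 plasmacytoid dendritic cell genes 637 and 569. The 7 T-cell genes stood at 496 and 498, with Cd3e at 0 by the gate, and the 3 erythroid genes at 1545 and 2081. Past 1.5-fold, 4 of 7 plasmacytoid dendritic cell genes tested, 2 of 3 NK, 2 of 4 myeloid and 2 of 2 hepatocyte genes were lower in the antibiotic library, 1 of 3 erythroid genes was higher and 0 of 6 T-cell genes differed. Their part in the differences was not tested.

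Class-switched B cells were rare in both libraries. A B cell with at least 5 heavy chain UMIs was called switched when over 50% of them, and at least 3, came from Igha, Ighe or an Ighg gene. In the vehicle library 7 of 2872 B cells met this (0.244%, 0.0981 to 0.502), of which 5 were led by Igha, 1 by Ighg2b and 1 by Ighg3. In the antibiotic library 4 of 1276 did (0.313%, 0.0855 to 0.801), 1 led by Igha and 3 by Ighg2b. The intervals of the libraries overlapped. By the same call 0 of 350 T cells in the vehicle library and 0 of 174 in the antibiotic library were switched. The exact intervals allow up to 1.05% and 2.10%. The 5 Igha-led vehicle cells held 16, 14, 12, 7 and 5 Igha UMIs and no Ighm UMI, and 4 of their 5 had no Jchain UMI. All 3012 vehicle B cells together held 71 Jchain UMIs. The Ighg2b-led cells of the antibiotic library held 46, 36 and 6 Ighg2b UMIs, with 345, 170 and 59 Igkc UMIs. Fcer2a, the CD23 receptor of follicular B cells, was without a UMI in 6 of the 7 and 3 of the 4 switched cells. Of all B cells, 39.5% in the vehicle and 53.4% in the antibiotic library had none, so these few cells mark no trait. The Ighg3-led cell held 12 Ighg3, 10 Ighg2b, 4 Ighg1 and 1 Ighg2c UMIs beside 167 Iglc2 and 2 Igkc UMIs.

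Jchain picked out 6 cells in the vehicle and 9 in the antibiotic library, and these cells held most of the switched antibody RNA of the liver leukocytes. They made up 0.0667% of called cells (0.0245 to 0.145) in the vehicle and 0.128% (0.0584 to 0.242) in the antibiotic library. Relative to all B-lineage cells, the shares were 0.199% (0.0730 to 0.432) and 0.670% (0.307 to 1.27), which still overlapped. Fewer B cells and more Jchain-high cells both raise such a share. Of all UMIs in called cells, they held 95.9% and 96.0% of Jchain, 89.0% and 92.2% of Igha, and 90.4% and 91.1% of Ighg2b. They also held 90.9% of the 3466 Ighg1 UMIs of the vehicle library and 92.9% of the 2119 Ighg3 UMIs of the antibiotic library. For Ighm and Igkc, which naive B cells share, they held 8.74% and 20.7% in the vehicle and 32.1% and 45.4% in the antibiotic library. Since Jchain chose these cells, its own share is a description. The limit of 10 Jchain UMIs fell in a wide gap: the lowest cell inside held 217 UMIs in the vehicle and 224 in the antibiotic library, and the highest outside 3 and 2.

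Each of the 15 cells was dominated by a single heavy chain and a single light chain. The leading heavy chain gene took at least 97.65% of a cell's heavy chain UMIs, and the leading light chain gene at least 92.09% of its light chain UMIs. IgM led in 1 vehicle and 5 antibiotic cells, IgA in 3 and 1, IgG1 in 1 and 0, IgG2b in 1 and 2, and IgG3 in 0 and 1. Igkc led in 5 of 6 and 7 of 9 cells. In the vehicle library, the Ighm cell held 4513 Ighm UMIs, the IgA cells 1705, 1674 and 396 Igha UMIs, the IgG1 cell 3151 Ighg1 UMIs and the IgG2b cell 3666 Ighg2b UMIs. In the antibiotic library, the IgM cells held 2945, 2482, 2434, 1937 and 191 Ighm UMIs, the IgG2b cells 4614 and 441 Ighg2b UMIs, the IgG3 cell 1968 Ighg3 UMIs and the IgA cell 1037 Igha UMIs. Jchain was not limited to the IgM and IgA cells. It reached 1155 UMIs in the IgG2b cell and 615 in the IgG1 cell of the vehicle library, and 1238, 745 and 256 in the IgG cells of the antibiotic library, against 217 to 1899 and 224 to 1528 over all. The kappa cells held 1571 to 11360 Igkc UMIs. The lambda cells were led by Iglc1 in the vehicle library (1314 UMIs) and by Iglc2 in the antibiotic library (6588 and 556 UMIs). With 6 and 9 cells the class counts of the libraries cannot be told apart from the draw of a few cells.

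**Figure D2:**
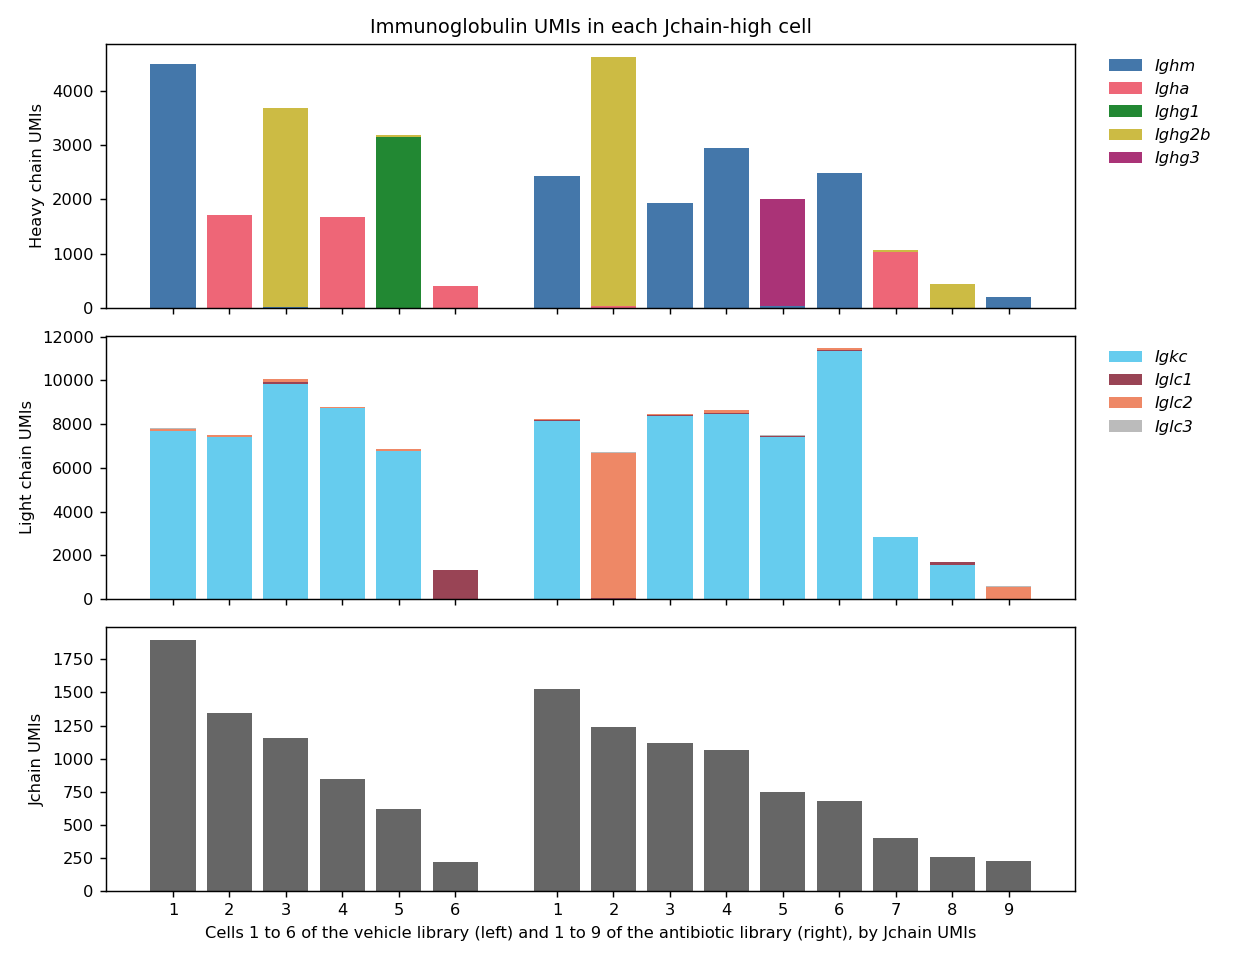
UMIs of the heavy chain genes, the light chain genes and Jchain in each of the 15 Jchain-high cells, 6 of the vehicle library (left) and 9 of the antibiotic library (right), ordered by Jchain. Each bar is 1 cell and each colour 1 gene: nearly every bar has a single colour, with IgM leading in 1 and 5 cells and IgA in 3 and 1.

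Jchain can also be made by plasmacytoid dendritic cells, and the levels of other genes set these cells apart from those and from B cells. All 12 genes of a plasma cell and secretion list were seen in both libraries, with a summed level of 12136 CPM in vehicle and 11632 CPM in antibiotic Jchain-high cells against 1145 and 1029 in B cells. Mzb1, a chaperone of antibody assembly, stood at 4157 and 4785 CPM, Hsp90b1 at 3258 and 1962, Xbp1, the transcription factor of the secretory programme, at 1215 and 1640, and Sec11c, of the signal peptidase, at 1506 and 1213. Sdc1, which encodes the plasma cell marker CD138, had a UMI in 14 of the 15 cells. Irf4 and Prdm1, of the same list, had a UMI in only 6 and 5 of them. By contrast, 8 B-cell genes summed to 625 and 854 CPM against 7958 and 7857 in B cells, Pax5 and Siglech had no UMI in any of the 15, and Ighd had 1 UMI in 1 cell. The 10 plasmacytoid dendritic cell genes summed to 476 and 248 CPM, against 16351 and 15150 in their own gate. The genes furthest above B cells were Eaf2 (33.6-fold, with 10 CPM added to both levels), Xbp1 (27.3), Derl3 (22.8), Tnfrsf17 (21.7), Fkbp11 (18.8), Edem1 (17.9), Hsp90b1 (16.6), Sdf2l1 (16.3), Creld2 (16.0) and Prdx4 (12.6). Most of these act in protein folding and export from the endoplasmic reticulum, and Tnfrsf17 encodes the survival receptor BCMA, at 185 and 229 CPM here and at 0 UMIs in B cells. These genes describe cells chosen by Jchain and were given no test. The cells were large, at 8226 to 25574 UMIs in the vehicle and 6402 to 23801 in the antibiotic library, and immunoglobulin genes and Jchain made up 23.9 to 65.4% and 15.6 to 74.2% of them. Trac had a UMI in 10 of the 15 cells and Cd3e in 5. Mki67 and Top2a, markers of dividing cells, reached 11 and 8 UMIs in the IgG3 cell, and Ccr10, a receptor for mucosal chemokines, 9 and 17 UMIs in 2 of the 3 vehicle IgA cells. These 3 genes were singled out after their values were seen.

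The free RNA of each library carried the antibody classes of its own Jchain-high cells. Among switched heavy chain UMIs, those of vehicle Jchain-high cells were 35.5% Igha, 29.6% Ighg1, 34.9% Ighg2b and 0% Ighg3, and those of vehicle free RNA 31.6%, 38.8%, 29.1% and 0.480%. In the antibiotic library, the Jchain-high cells stood at 13.2%, 0%, 62.6% and 24.2%, and free RNA at 11.98%, 0.243%, 64.6% and 23.2%. T cells followed, with 31.4%, 34.2%, 32.4% and 1.95% in the vehicle and 10.9%, 0%, 65.8% and 23.3% in the antibiotic library. In free RNA, 6 of the 9 members tested passed 1.5-fold between libraries, where 8.38% of 6255 genes did. Ighg1 went from 647 UMIs to 4 (ratio 0.00642, 0.00174 to 0.0165) and Ighg3 from 8 to 381 (49.4-fold, 24.8 to 115). Igha was at 0.388-fold (0.328 to 0.458), Iglc1 at 0.462-fold, Ighg2b at 2.28-fold (2.04 to 2.54) and Jchain at 1.76-fold (1.57 to 1.97). Of the free UMIs of Igha, Ighg1, Ighg2b, Ighg3 and Jchain, 94.9 to 100% were the only UMI of that gene in their barcode. Free RNA barcodes held a median of 2 UMIs in either library. This share was therefore largely set by their small size and says little of how the RNA was spread.

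In T cells, which do not make antibody, 8 of 9 members tested passed 1.5-fold between libraries, where 10.4% of 9428 genes did, and the switched classes and Jchain went the way of free RNA. Ighg1 went from 175 UMIs to 0 (at least 53.9-fold lower, taking 3 UMIs as the floor), Ighg3 was 11.2-fold higher (5.82 to 23.9), Ighg2b 1.90-fold higher and Jchain 1.59-fold higher (1.28 to 1.98), and Igha was at 0.323-fold. Ighd was at 0.663-fold, Igkc at 0.505-fold and Iglc1 at 0.236-fold. Cells that passed both the B-cell gate and the Trac limit numbered 59 in the vehicle and 30 in the antibiotic library. Scrublet marked 246 and 93 T cells as doublets, whose part in these ratios was not tested. T cells without a Cd79a UMI held Ighd at 9.88 and 8.64 CPM, against 31.3 and 20.8 in all T cells. Igkc was at 279 and 179 CPM in them, against 649 and 328, and Iglc1 at 23.85 and 8.14, against 57.0 and 13.45. Igha stood there at 7.79 and 2.54 CPM, Ighg2b at 8.20 and 15.8 and Jchain at 7.79 and 11.6. The Jchain ratio of B cells (1.75), of T cells (1.59) and of free RNA (1.76) had overlapping intervals. Read against free RNA, Jchain in B cells stood at 5.52% and 5.49% of its free level, and in T cells at 4.93% and 4.47%. For Igha the same percentages were 16.8% and 16.4% in B cells and 5.24% and 4.36% in T cells.

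**Figure D3:**
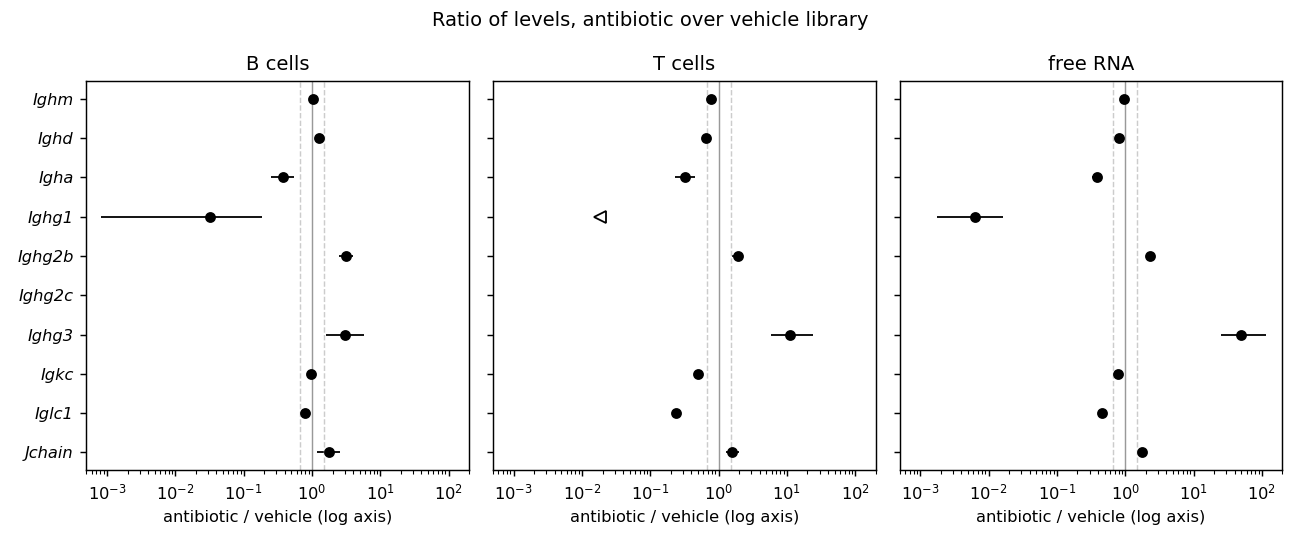
Ratio of the level in the antibiotic library over that in the vehicle library for each of the 10 genes, in B cells, T cells and free RNA, on a log axis with exact 95% intervals; dashed lines mark 1.5-fold and the open triangle a bound from 0 UMIs. Igha lies left of 1 and Ighg2b, Ighg3 and Jchain right of 1 in all 3 panels, and Ighm stays between 0.779 and 1.03.

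Ighm stood higher than the other well-counted members in T cells, relative to free RNA. T cells without a Cd79a UMI, 3268 (79.8%) in the vehicle and 4009 (89.8%) in the antibiotic library, held Ighm at 22.0% (21.1 to 23.0) and 21.1% (20.2 to 22.0) of its level in free RNA. The other members with more than 5 UMIs there stood between 3.98% and 5.63% in the vehicle library and between 2.94% and 4.96% in the antibiotic library. Igkc, for example, was at 4.96% (4.79 to 5.13) and 4.01% (3.85 to 4.18), and Ighd, made from the same locus as Ighm, at 4.63% and 4.96%. Vehicle Ighg3, with 5 UMIs, was at 14.0% (3.59 to 48.4). Cells with no light chain and no Cd79a UMI at all still carried it: an Ighm UMI was seen in 63.7% of 667 such vehicle T cells (59.9 to 67.4) and 58.7% of 1701 such antibiotic T cells (56.3 to 61.1), at 297 and 273 CPM. In NK and innate lymphoid cells of this kind the shares were 47.1% and 51.9%. The source of this Ighm RNA was not tested.

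**Figure D4:**
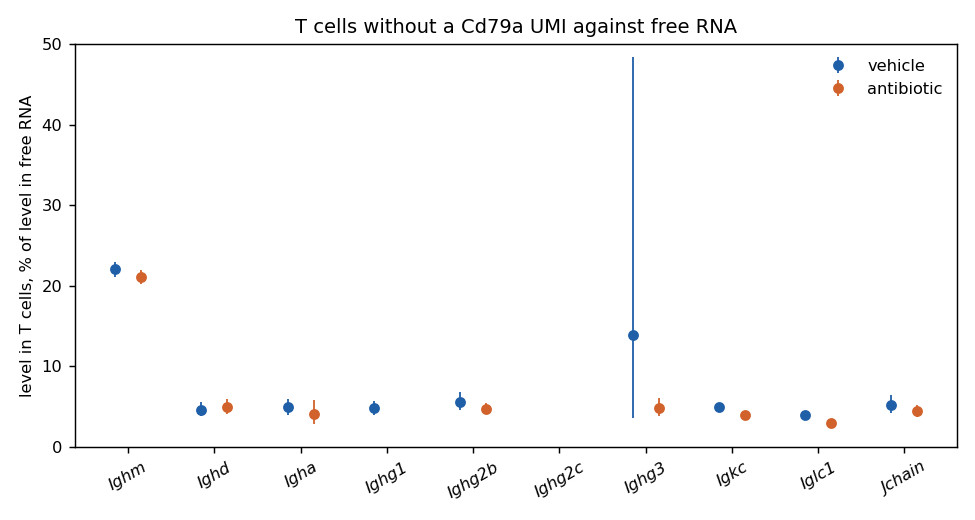
Level of each gene in T cells without a Cd79a UMI as a percentage of its level in free RNA, vehicle in blue and antibiotic in orange, with exact 95% intervals; points of 3 or fewer UMIs are left out. Ighm sits at 22.0% and 21.1% and the other genes near 5%, except vehicle Ighg3, which rests on 5 UMIs.

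The plasmacytoid dendritic cell gate, whose cells produce interferon and share some transcripts with B cells, showed its own set of immunoglobulin genes. Ighm was seen in 157 of 158 vehicle cells and 32 of 32 antibiotic cells, at 1143 and 1001 CPM (83.9% and 76.5% of the free level). Iglc3 stood at 1573 and 1443 CPM, or 250% and 415% of the free level, against 1943 and 1899 CPM in B cells. Iglc1 and Iglc2 were far lower in the same cells, at 52.7 and 71.9 CPM and at 80.6 and 61.6 CPM. Igkc was at 741 and 293 CPM and Ighd at 19.6 and 20.5 CPM. Iglc2 and Iglc3 differ at 2 of the positions shown above, and the part of reads that match both in their split was not tested. The Iglc2-led Jchain-high cells of the antibiotic library held 6588 and 556 Iglc2 UMIs beside 84 and 20 Iglc3 UMIs. Jchain had 4 UMIs in the 158 vehicle cells and 0 in the 32 antibiotic cells, at 4.13 CPM and under 15.4 CPM, so that these cells added almost nothing to Jchain. The gate is small in the antibiotic library, and 8 B-cell genes summed to 601 and 488 CPM in it against 7958 and 7857 in B cells.

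Within B cells, IgM, IgD and lambda levels differed by maturity markers. B cells were split by Fcer2a, high in follicular cells, and by Vpreb3, a surrogate light chain gene that falls as B cells mature. In the vehicle library Fcer2a-positive cells (1822 of 3012) held Ighm at 3574 CPM and negative cells at 4604, a ratio of 0.776 (0.760 to 0.793), and Ighd at 906 and 670 CPM (1.35, 1.29 to 1.42). In the antibiotic library (622 of 1335 positive), the ratios were 0.900 (0.870 to 0.932) for Ighm and 1.10 (1.02 to 1.17) for Ighd. With B cells taken from a Cd79a limit of 1 UMI, the antibiotic Ighm ratio turned from -0.15 to 0.13 on the log2 scale. Vpreb3-high cells (at least 2 UMIs) held more Ighm than Vpreb3-low cells, at 1.37-fold (1.34 to 1.40) and 1.20-fold (1.15 to 1.24). With cells thinned to 1500 UMIs these Ighm ratios were 0.793 and 0.928 for Fcer2a, and 1.43 and 1.19 for Vpreb3. Over both splits, Ighm UMIs per Ighd UMI ran from 3.57 in Fcer2a-positive, Vpreb3-low vehicle cells to 10.4 (9.52 to 11.3) in Fcer2a-negative, Vpreb3-high ones, and from 3.59 to 5.57 (5.06 to 6.14) in the antibiotic library.

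Among the members above 100 CPM in B cells, Iglc1 showed the widest ratios by Fcer2a and Vpreb3. It was at 2552 CPM in Vpreb3-high and 1279 CPM in Vpreb3-low vehicle cells (1.99-fold, 1.93 to 2.06), and at 1839 and 1081 CPM in antibiotic cells (1.70-fold, 1.60 to 1.81). Among Fcer2a-negative cells the ratio was 2.80-fold (2.68 to 2.93) and 2.09-fold (1.93 to 2.26), and among Fcer2a-positive cells 1.29-fold and 1.25-fold. Igkc differed by no more than 1.17-fold in any of these contrasts. For Fcer2a, 2 of 6 members tested in the vehicle library (Ighg2b and Iglc1, lower in positive cells) and 1 of 5 in the antibiotic library (Ighg2b) passed 1.5-fold, against 2.97% and 2.25% of all genes. For Vpreb3, 3 of 6 (Iglc1 higher, Igha and Ighg2b lower) and 2 of 5 (Iglc1 higher, Ighg2b lower) did, against 5% and 3.24%. Class-switched cells weigh on the Ighg2b and Igha calls. Antibiotic ones without an Fcer2a or Vpreb3 UMI held 46 and 36 of the 113 Ighg2b UMIs of Fcer2a-negative cells. In the vehicle library, the Ighg2b-led and Ighg3-led cells held 10 and 10 of 65. The Igha-led vehicle cells held 16, 14, 12, 7 and 5 of the 188 Igha UMIs of Vpreb3-low cells. Subset ratios without these cells were not computed. The cells of each contrast came from 1 library, and a few strongly expressing Iglc1 cells weigh on each sum: the highest held 213 Iglc1 UMIs in the vehicle and 106 in the antibiotic library. Haemoglobin RNA also differed between the subsets, with Hbb-bs at 707 CPM in Fcer2a-positive and 892 in negative vehicle cells, at 2067 and 18.1 in antibiotic cells, and at 65.7 and 1066 (vehicle) and 3044 and 22.6 (antibiotic) in Vpreb3-high and low cells, and its part was not tested.

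Lambda B cells were also counted by cell. A B cell with at least 5 light chain UMIs was called lambda when over 50% of them were Iglc1, Iglc2 or Iglc3. This gave 332 of 2988 vehicle cells (11.1%, 10.0 to 12.3) and 129 of 1333 antibiotic cells (9.68%, 8.14 to 11.4). Iglc1 led in 168 and 57 of them, Iglc2 in 122 and 56, and Iglc3 in 42 and 16. The lambda share was 8.21% in Fcer2a-positive, Vpreb3-low vehicle cells and 19.8% (15.8 to 24.2) in Fcer2a-negative, Vpreb3-high ones. In the antibiotic library these shares were 8.43% and 13.4% (9.18 to 18.7), with overlapping intervals. Iglc1-led cells made up 10.0% (7.16 to 13.6) and 7.41% (4.29 to 11.8) of the Fcer2a-negative, Vpreb3-high cells. The calls were not clean, since 86.4% and 88.0% of typed cells held between 10% and 90% lambda UMIs. The median kappa cell held 42 and 35 Igkc UMIs beside 11 and 10 lambda UMIs, whereas the median lambda cell held 4 and 6 Igkc and 47 and 29 lambda UMIs. As background, 32 of 334 typed vehicle T cells (9.58%) and 3 of 105 typed antibiotic T cells were also called lambda, from the 8.16% and 2.35% of T cells that held enough light chain UMIs.

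**Figure D5:**
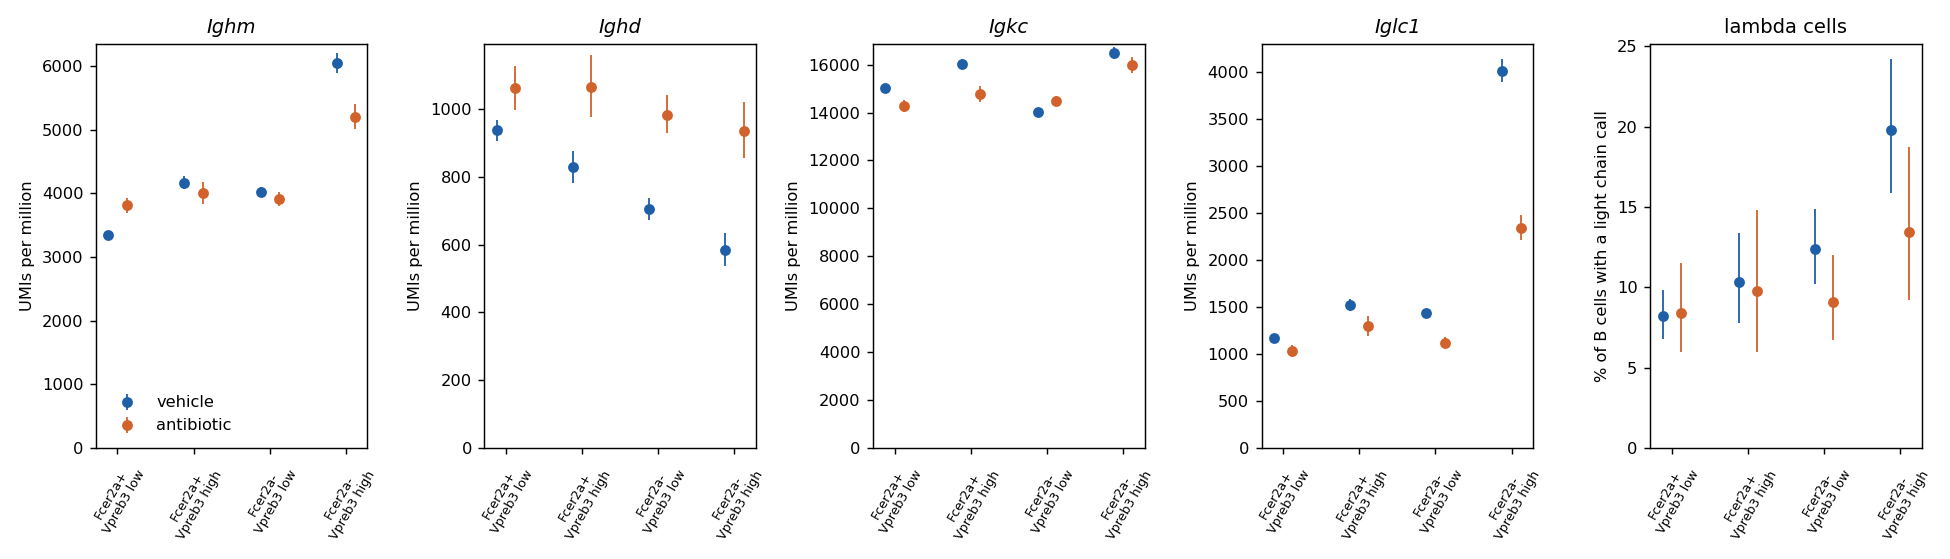
Level of Ighm, Ighd, Igkc and Iglc1 (CPM) and share of lambda cells (percent of B cells with a light chain call) in 4 B-cell subsets by Fcer2a and Vpreb3, vehicle in blue and antibiotic in orange, with exact 95% intervals. The Fcer2a-negative, Vpreb3-high subset was highest in Ighm, Iglc1 and lambda share in both libraries and lowest in Ighd in both, with overlapping intervals for the lambda share and Ighd of the antibiotic library.

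Genes that work with the antibody chains in B cells were read against the 6.88% of all genes past 1.5-fold between libraries. None of 23 B-cell receptor signalling genes passed 1.5-fold, and their median difference was 0.09 on the log2 scale against 0.08 for all genes. Cd79a and Cd79b, the signalling partners of membrane antibody, stood at 3640 and 3872 CPM and at 2644 and 2483 CPM. Ptpn6, an inhibitory phosphatase, was at 435 and 475 CPM and Bank1, an adaptor, at 442 and 434. Among 6 antibody receptor genes tested, Fcmr, the receptor for IgM, was at 1001 and 950 CPM, Fcer2a at 406 and 295, Fcrla at 339 and 292 and Fcgr2b at 57.6 and 65.0. The genes named below for passing 1.5-fold were chosen after their values were seen. Pigr, the carrier of polymeric IgA and IgM across epithelia, was the only 1 of these 6 past 1.5-fold, at 13.0 and 5.80 CPM (0.444-fold, 0.258 to 0.726). Both other light chain genes tested, Iglc2 and Iglc3, stayed within 1.5-fold. Of 9 plasma cell and secretion genes tested in B cells, Edem1 was higher and Sdc1 and Creld2 were lower past 1.5-fold. None of the 8 B-cell, 8 follicular, 4 immature and 6 marginal zone genes tested was past 1.5-fold, while 1 of 3 B-1 genes (Plac8) and 1 of 4 memory genes (Pdcd1lg2) were lower.

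The genes whose levels ran most like each member over the cell sets were also described. Over 16 points (8 cell sets in each library, free RNA included, which share depth and free RNA within a library), Pearson's r of log2(CPM + 10) was highest between Ighm and Mzb1 (0.980), St6gal1 (0.961) and Serpini1 (0.949). For Ighd they were Fcer2a (0.974), Cd22 (0.971) and Pax5 (0.968), and for Igkc Mzb1 (0.956), Sfn (0.949) and Pou2af1 (0.929). Igha ran most like Fkbp11 (0.960), Oosp1 (0.954) and Eaf2 (0.952), and Jchain most like Eaf2 (0.956), Tnfrsf17 (0.951) and Derl3 (0.948). Fcer2a and Cd22 encode surface receptors of B cells and Pax5 their defining transcription factor, and Fkbp11, Eaf2, Tnfrsf17 and Derl3 are among the 10 genes furthest above B cells in Jchain-high cells. The Jchain-high cells, chosen by Jchain, are among the 8 cell sets and hold the highest Jchain and Igha levels. This overlap was therefore largely fixed by the choice of cells and adds no support.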

How the data were processed

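Unnormalised gene by barcode UMI counts of 2 libraries were deposited by the authors, 1 of vehicle and 1 of antibiotic treated mice, with every barcode that held a UMI. Per the submitters' processing notes, reads were handled with Cell Ranger and bcl2fastq on mm10. No version was given in the sources used here. The members, lists, gates and tests were chosen with earlier results of these data known. Counts were summed per cell set with numpy 2.4.6 and scipy 1.17.1 in Python 3.11.15, as CPM with exact Poisson intervals. Ratios used the exact conditional interval of 2 counts and shares the Clopper-Pearson interval, at 95%. A ratio past 1.5 in either direction was counted among genes of at least 100 UMIs over both arms. A count of 0 was bounded by 3 UMIs. Cells were thinned to 1500 UMIs where stated. Doublets were marked by Scrublet (scanpy 1.11.5) and left in, and the intervals were checked on simulated counts. Named genes were the 10 members and up to 4 genes of a list with the highest level in B cells. For the secretion list the level in Jchain-high cells was used. The 3 genes most like a member were also named. So were the 10 genes furthest above B cells (at 100 CPM or more in both libraries, 10 CPM added). Sdc1, Irf4 and Prdm1 were named outside these rules. List genes past 1.5-fold and others so marked were chosen after their values were seen. The list of class switching genes is not reported here. Gene positions and ends came from GRCm38 with GENCODE annotation. Alternatives covered cell, gate, subset and free RNA limits, doublets, thinning, denominators and subtraction of the level in T cells as background. Cells are not replicates, and depth was 41474311 and 29811401 UMIs.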

Additional observations from a re-analysis of the deposited data

Results flagged for a closer look

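Signal of Jchain appeared in barcodes that were neither called cells nor free RNA, holding between 50 and 1500 UMIs. In the vehicle library 5 such barcodes held at least 10 Jchain UMIs, with 96 to 218 UMIs in all, and in the antibiotic library 3 did, with 133 to 138 UMIs. Of the 5, 2 were Jchain-high cells of the antibiotic library, with 21048 and 15521 UMIs there. The other 6 entries, of which a pair is the same barcode seen from each library, were called in neither. They held 90 to 188 UMIs and 6 to 12 Jchain UMIs in the opposite library too. Igha led their heavy chain UMIs with 1 to 20, and Igkc their light chain UMIs with 50 to 115. A lead of 1 UMI sets no class. No test of other groups of 4 to 10 samples was possible with 1 library a group.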

How the results depend on the processing

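Over 45 results, 551 alternative values were computed, of which 439 stayed within the counting error of the reported value, 106 moved and 6, of values beyond counting error, turned direction, and 272 of 280 log2 ratios kept their sign. Limits of 5 or 20 Jchain UMIs gave the same 15 cells. No paired analysis was possible because each group is 1 library and no result comes from a test. All following ratios are log2. With cells of at least 2500 UMIs, the antibiotic over vehicle ratio of B cells turned to -0.026 for Ighm and moved to -2.30 for Igha and 2.34 for Ighg2b, the Iglc1 ratio by Vpreb3 to 0.71 (vehicle) and 0.38 (antibiotic), and the class-switched share of antibiotic B cells to 0.817%. With Cd79a of at least 1, the Iglc1 ratio by Vpreb3 moved to 1.23 and 1.02, and the vehicle Ighd ratio by Vpreb3 (0.017) and the antibiotic Ighm (0.13) and Igkc (0.26) ratios by Fcer2a turned. With Vpreb3 of at least 1, Iglc1 moved to 0.84 and 0.44 and vehicle Ighd turned to 0.012. The Ighg2b ratio of B cells was 1.03 as the mean over cells, 1.26 thinned and 2.29 with the level in T cells subtracted. In settings chosen after seeing the data, it was 1.24 without the highest B cell of each library and 0.72 without class-switched cells. Thinning moved Igha to -0.87, and subtracting the level in T cells turned Ighg3 to -0.28. Igkc in T cells, 11.5% and 7.34% of its free level, moved to 5.78% and 4.51% without Scrublet doublets, to 13.6% and 8.34% with B cells limited to those without a Trac UMI, to 27.2% and 24.2% over every cell of at least 2 Trac UMIs and to 4.96% and 4.01% without Cd79a UMIs. Free RNA of 1 to 19 or 10 to 99 UMIs gave 13.2% and 11.01% in the vehicle library. Apart from these settings the causes were not tested. Depth limits the rare classes: 1 UMI is 0.115 CPM in vehicle B cells, and 15 Jchain-high cells decide the switched isotypes.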
